A study of Mus musculus with 4 samples.

Results

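The genes described are 39 adhesion genes of mouse T cells, read in 4 RNA-seq libraries. They are the 18 integrin alpha subunits, the 8 integrin beta subunits, the selectins Sele and Selp with the selectin ligand Selplg, and 10 further adhesion receptors (Icam1, Icam2, Icam4, Vcam1, Pecam1, Alcam, Cd2, Cd44, Cd47 and Cd6). They were chosen by name, with earlier results of these data known. Each matched 1 row of the deposited tables by its gene identifier, and together they are 39 of the 50600 genes counted. All libraries came from primary T cells of C57BL/6NJ mice with 1 shared donor entry, and neither age nor sex was recorded in the labels. The file headers name every library Th0, activated, sorted and 72 h, Th0 being the usual name for CD4 T cells activated without cytokines that steer a helper subset. No second condition was given, so genes were compared with each other inside each library, and every spread is that between biological replicates 1 to 4, which the labels do not assign to separate animals or cultures.

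Integrins are receptors made of 1 alpha and 1 beta chain that bind matrix proteins or counter-receptors on other cells. T cells use the beta 2 integrin LFA-1 (Itgal with Itgb2) to bind ICAM proteins on antigen presenting cells and vessel walls, and the integrins that Itga4 forms with Itgb1 (VLA-4) or Itgb7 to bind VCAM-1, fibronectin or the gut addressin. Selectins on vessels, E-selectin (Sele) and P-selectin (Selp), catch leukocytes through glycosylated PSGL-1 (Selplg), which starts rolling. Ligand binding by integrins is switched on from inside the cell by talin, kindlin and the GTPase Rap1.

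Total counts lay between 34978213 in replicate 1 and 118937382 in replicate 2. The libraries differed in sex-linked transcripts. Xist, the RNA of the inactive X chromosome of female cells, had 56332, 206269, 290 and 310 counts in replicates 1 to 4. Each of 4 genes of the Y chromosome (Ddx3y, Uty, Kdm5d and Eif2s3y) had at most 14 counts in the first pair of replicates, and at least 1370 in the other pair. Replicates 1 and 2 thus had a female and replicates 3 and 4 a male pattern, so the libraries do not all come from 1 animal and every spread includes this difference, whose part in the results was not tested. Levels are TPM, the counts per exonic length scaled to the same total in each library, given as mean ± SD. The exonic length is that of all annotated exons of a gene together, and which transcripts the cells used was not examined. In these bulk samples, fewer cells of a type and less RNA per cell cannot be told apart. The labels link a differentiation protocol named for CD4 T cells. All 12 T cell markers were at or above 1 TPM throughout, Cd4 at 976 ± 29.3 (SD, n = 4). Cd8a was at 0.267 ± 0.185 and Cd8b1 at 21.4 ± 5.49. Marker lists of other cells summed to at most 0.129 TPM for neutrophils, 0.385 for endothelium, 0.725 for megakaryocytes and platelets, 3.52 for macrophages and monocytes, 7.25 for NK cells and 7.92 for B cells in any library. The sums reached 0.304 TPM for mast cells and basophils, 4.90 for fibroblasts and smooth muscle, 5.87 for epithelium and 19.1 for dendritic cells, of which Batf3 gave 12.1 ± 3.32.

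Of the 39 adhesion genes, 23 (59.0%) reached a TPM of 1 in all 4 libraries, against 49.9% of 21764 protein-coding genes. Another 2, Itga7 and Icam4, reached it in 3 libraries, and 14 in none. A mean of 100 TPM or more was found for 8 genes, which were Cd6, Itgal, Itgb2, Cd2, Itgb1, Selplg, Cd44 and Itgb7. The median over the 39 means was 7.0 TPM and that over all protein-coding genes 1.43 TPM. Counts were 0 in all libraries for Itga1, Itgad and Itgax. In the order of mean level, the 25 genes with a mean of 1 TPM or more form 24 neighbouring pairs, and in 9 of these the ranges over libraries overlapped. Of those 9, Itgb3 and Icam1, Itga5 and Pecam1, and Itga9 and Itga2b still kept 1 order in every library. The others, among them Selplg and Cd44, Itga4 and Itgb3, and Alcam and Itgb5, did not differ beyond their spread.

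**Figure D1:**
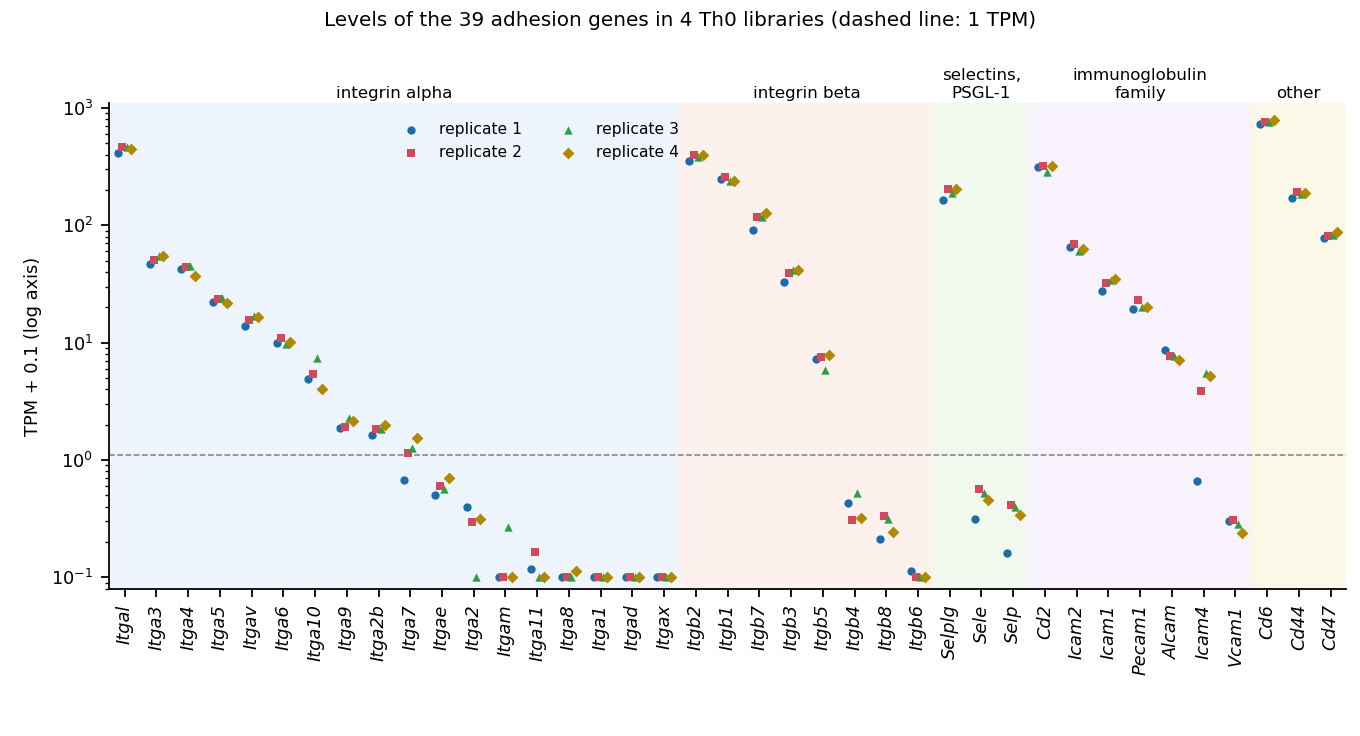
TPM plus 0.1 on a log axis for each of the 39 adhesion genes, grouped by role and ordered by mean level, with 1 marker for each of the 4 replicates and a dashed line at 1 TPM. Within the alpha chains Itgal stands alone at 409 to 466 TPM, and Icam4 has 1 library, replicate 1, far below the rest.

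The alpha chain transcripts were mostly those of Itgal, and its partner Itgb2 was nearly as high. Itgb2 (ENSMUSG00000000290.13, chromosome 10, 77530252 to 77565708, plus strand, mm10), the beta chain of LFA-1, had 353, 400.3, 378 and 397 TPM in replicates 1 to 4. Its partner Itgal (ENSMUSG00000030830.18, chromosome 7, 127296260 to 127335138, plus strand), the alpha chain, had 409, 463, 466 and 444 TPM. Both chains were high in every library, above 98.3% (Itgb2) and 98.7% (Itgal) of protein-coding genes by mean level, and both were lowest in replicate 1. Itgb2 minus Itgal was -0.22 ± 0.06 on the log2(TPM + 0.1) scale (SD, n = 4), negative in 4 of 4 libraries. In all, 23 such differences between genes were taken inside libraries and tested by exact sign-flip permutation, two-sided. With 4 libraries the smallest p of that test is 2 of 16 sign patterns, which every pair with 1 direction throughout reached (adjusted p = 0.131, Benjamini-Hochberg over the 23), so no pair can pass 0.05. Every other log2 difference given is on that scale and, where it was tested and held in 4 of 4 libraries, has that p. The ratio of Itgb2 to Itgal lay between 0.812 and 0.892 in a library.

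Itgal alone made up 74.4% ± 0.534 of the summed TPM of the 18 alpha chains (SD, n = 4), a sum of 599 ± 33.5 TPM. Without the correction for length, as CPM (counts scaled to library size alone), its share was 69.1%. Itga3 took 8.63% ± 0.405 and Itga4 7.05% ± 0.615, and these 3 chains together took 90.1% ± 0.158. Beyond them came Itga5 with 3.8% ± 0.128, Itgav with 2.60% ± 0.127, Itga6 with 1.69% ± 0.0988 and Itga10 with 0.891% ± 0.209. The other 11 alpha chains each held less than 0.5%. Itgal exceeded Itga4 by 3.40 ± 0.14 log2 in 4 of 4 libraries, with ratios of 9.59 to 12.0.

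**Figure D2:**
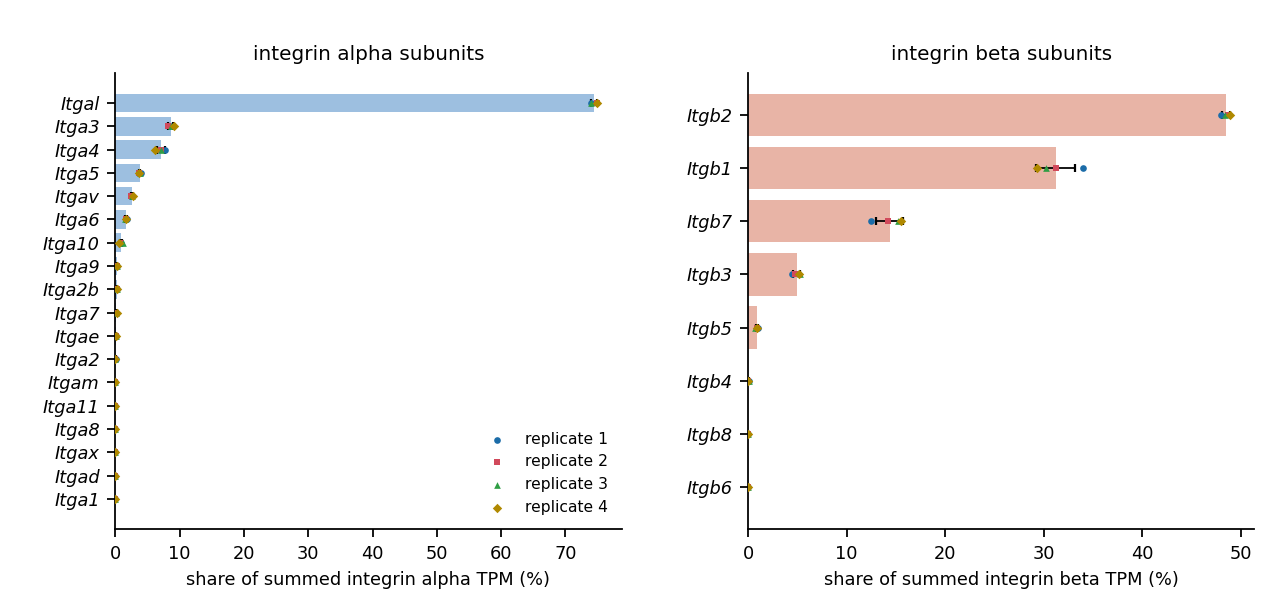
Share of the summed TPM of the 18 integrin alpha chains (left) and the 8 beta chains (right) taken by each gene, with bars for the mean, error bars for the SD and markers for the 4 replicates. Itgal holds 74.4% of the alpha sum, while the beta sum is spread over Itgb2, Itgb1 and Itgb7.

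The other alpha chains that pair with Itgb2 were at or near 0. Itgax (CD11c) and Itgad (CD11d) had 0 counts in all libraries. In replicate 1, the shallowest, this allows up to 0.0553 TPM for Itgax and, over the bases Itgad does not share with Gm17831, up to 0.0636 TPM for Itgad. Itgal was therefore at least 7390-fold higher than Itgax in every library, with a floor of 3 counts per library. Itgam, the alpha chain of the myeloid integrin Mac-1, had 0 counts in 3 libraries and 11 in replicate 3, or 0.169 TPM. These 3 genes lie on chromosome 7 on the same strand as Itgal, Itgam 727.5 kb beyond it, Itgax 11.1 kb beyond Itgam and Itgad 3.72 kb beyond Itgax. On the same strand, 68.7% of the exonic bases of Itgam are shared with the gene model Gm49368, which also had 0 counts, and counting left out read pairs that fit both, so the level of Itgam rests on 1574 unshared bases, over which replicate 3 had 0.539 TPM. Of the macrophage and monocyte markers, Lyz2, C1qa, C1qb and Fcgr1 had 0 counts in every library.

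Itgb7 (chromosome 15, 102215995 to 102231935, minus strand), the beta chain of gut-homing integrins, had 91.9, 117, 118 and 126 TPM, lowest in replicate 1. Its partner Itgae (CD103), with which it binds E-cadherin, had 0.406, 0.497, 0.471 and 0.599 TPM. Itgae was thus low in all libraries while Itgb7 was high, and Itgb7 exceeded Itgae by 7.58 ± 0.10 log2 in 4 of 4 libraries. Itgal exceeded Itgae by 9.56 ± 0.17 log2 in 4 of 4 libraries. Itga4, the other partner of Itgb7, had 42.6, 44.1, 45.0 and 36.9 TPM. Itga4 and Itgae together came to 0.383 ± 0.0696 of the Itgb7 level (SD, n = 4), although in CPM, without the correction for length, the ratio was 1.93 ± 0.355. In the part of the Itga4 exons that an antisense gene shares, 8.04% of the bases, strand alone separates the reads from those of Cerkl, at 3.00 ± 0.809 TPM.

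Alpha chains that pair with Itgb1 were led by a laminin receptor chain. Itga3, which with Itgb1 binds laminins, had 46.9, 50.6, 54.7 and 54.3 TPM. Itga3 exceeded Itga4 in 4 of 4 libraries by 0.29 ± 0.18 log2, a difference that was not tested, although by CPM its share of the alpha chains was the smaller, 6.97% beside 13.9%, since the exons of Itga4 are longer. Itga5, the classical fibronectin receptor chain, had 21.96, 23.3, 23.9 and 21.7 TPM, a range of 1.1-fold. Itga4 exceeded Itga5 by 0.89 ± 0.08 log2 and Itga6, another laminin receptor chain, by 2.05 ± 0.14 log2, each in 4 of 4 libraries. Itga6 itself stood at 10.1 ± 0.476 TPM (SD, n = 4).

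Of the collagen receptor chains, Itga10 was at or above 1 TPM in all libraries and the others in none. Itga1 had 0 counts, Itga2 was at 0.177 ± 0.13 TPM and Itga11 at 0.0204 ± 0.0303. Itga10 had 4.83, 5.28, 7.36 and 3.96 TPM, highest in replicate 3. Of its exonic bases, 33.5% are shared on the same strand with Gm42957, at 0.129 ± 0.0853 TPM, and over the unshared bases its mean was 8.06 ± 2.17. Of the remaining partners of Itgb1, Itga9 was at 1.96 ± 0.210 TPM, Itga7 at 1.06 ± 0.362 and Itga8 at 0.0034 ± 0.0069 from 3 counts in replicate 4 alone. The epithelial list held Epcam as its highest marker at 3.26 TPM and Krt18 at 2.09 ± 0.581, while Krt8, Krt5 and Krt14 had 0 counts. The fibroblast and smooth muscle list had Pdgfrb as its highest at 3.22 TPM. The part of these cells in the Itga3, Itga9 and Itga10 levels was not tested.

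Among beta chains, Itgb2 took 48.5% ± 0.412 of a summed 787 ± 38.1 TPM, Itgb1 31.2% ± 2.00 and Itgb7 14.4% ± 1.37 (SD, n = 4). Itgb1, the shared chain of matrix receptors, had 250.1, 257, 236 and 238 TPM. It was thus below Itgb2 in every library, and Itgb2 exceeded it by 0.64 ± 0.10 log2. Itgb1 in turn exceeded Itgb7 by 1.12 ± 0.23 log2 in 4 of 4 libraries, with ratios from 1.89 in replicate 4 to 2.72 in replicate 1. The 12 alpha chains that can pair with Itgb1 summed to 0.616 ± 0.0475 of its level, but to 1.30 ± 0.0931 of it in CPM (SD, n = 4). Within this sum Itga3 held 34.3% ± 1.85, Itga4 28.0% ± 2.06, Itga5 15.1% ± 0.305 and Itgav 10.3% ± 0.616.

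Itgav, the alpha chain of the vitronectin receptor, had 13.7, 15.6, 16.8 and 16.3 TPM. Its partner Itgb3, which is also the beta chain of the platelet fibrinogen receptor, had 33.1, 39.5, 41.3 and 41.7 TPM, and both were lowest in replicate 1. Itgav was lower than Itgb3 in 4 of 4 libraries, with a difference of -1.31 ± 0.04 log2 and ratios of 0.391 to 0.414. Itga2b, the platelet partner, was at 1.72 ± 0.136 TPM, while the platelet markers Pf4, Ppbp, Gp9 and Gp6 had 0 counts in every library. Itgav was also lower than Itga5, by a log2 difference of -0.54 ± 0.11 in 4 of 4 libraries, although in CPM it was higher by 0.73, since Itgav has more exonic bases.

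Of the other beta chains that join Itgav, Itgb1 was high, at 245 ± 9.78 TPM, while Itgb5, Itgb8 and Itgb6 were low. Itgb5 had 7.11, 7.40, 5.80 and 7.67 TPM, lowest in replicate 3, and Itgb3 exceeded it by 2.46 ± 0.25 log2 in 4 of 4 libraries. Itgb8, which with Itgav frees TGF-beta from its latent complex, had 0.112, 0.236, 0.216 and 0.144 TPM. Itgb3 exceeded Itgb8 by 7.16 ± 0.24 log2 in 4 of 4 libraries. Itgb6 had 1 count, in replicate 1, and Itgb4, the partner of Itga6 in epithelia, was at 0.297 ± 0.103 TPM.

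**Figure D3:**
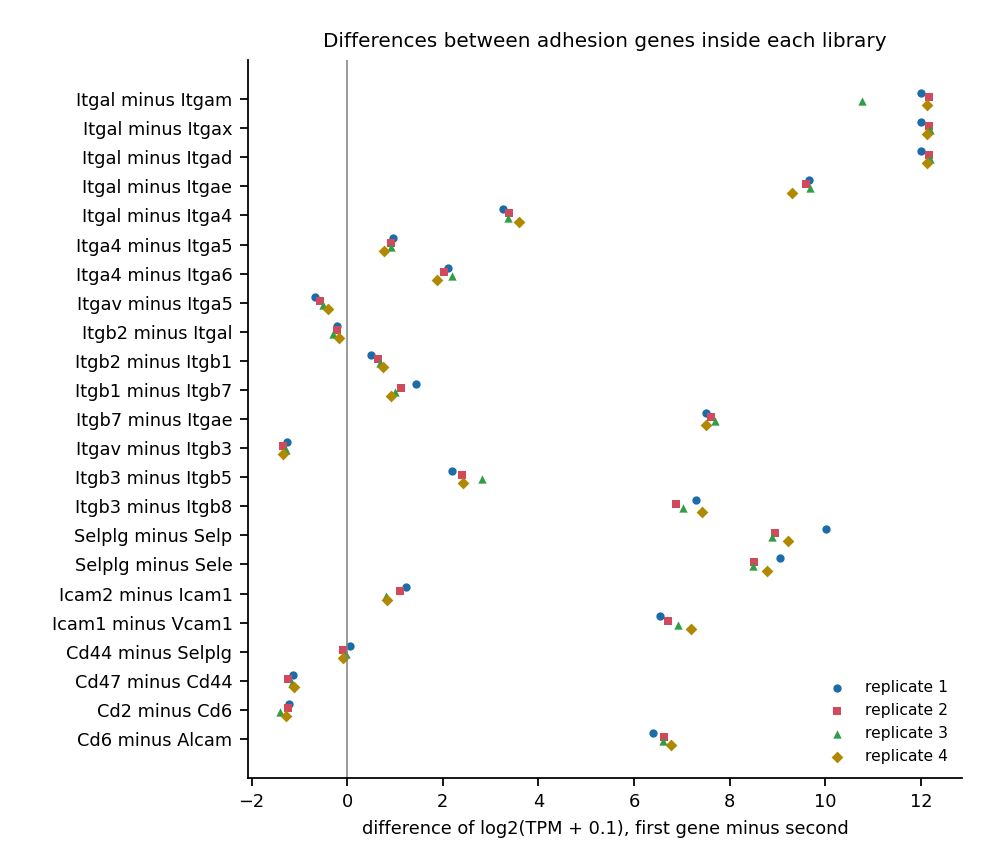
Difference of log2(TPM + 0.1) between the first and the second gene of 23 pairs, with 1 marker for each of the 4 replicates and a line at 0. In 22 pairs all 4 markers lie on one side of 0, and Cd44 minus Selplg straddles it.

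Promoter sequences are shown for pairs of members that differ widely in level or lie next to each other, so that the letters can be read beside the values. Sequences, on GRCm38.p6, are those of RefSeq, in which 25 of the 39 genes had an entry, and run from 250 bases before to 50 bases after the start site. Capitals mark matches, on either strand, to 6 motifs: RUNX (TGTGGT, in 16.8% of 32851 RefSeq promoters), ETS (CCGGAA, 14.9%), PU.1 (GAGGAA, 28.3%), Sp1 (GGGCGG, 35.7%), AP-1 (TGANTCA, 7.81%) and NF-kappaB (GGNNNTTCC, 18.5%). A match describes these letters only. The first set holds Itga4 (chr2:79255176-79255475, plus strand) and Itgb1 (chr8:128685404-128685703, plus strand), the chains of VLA-4, both transcribed, and Itgam (chr7:128062390-128062689, plus strand) and Itgax (chr7:128129300-128129599, plus strand), at or near 0.
Itga4: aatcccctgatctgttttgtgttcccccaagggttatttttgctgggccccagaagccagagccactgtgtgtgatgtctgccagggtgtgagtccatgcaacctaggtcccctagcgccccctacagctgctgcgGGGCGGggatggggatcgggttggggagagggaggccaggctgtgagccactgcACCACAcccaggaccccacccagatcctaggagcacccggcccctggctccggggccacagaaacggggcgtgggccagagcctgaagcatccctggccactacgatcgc
Itgb1: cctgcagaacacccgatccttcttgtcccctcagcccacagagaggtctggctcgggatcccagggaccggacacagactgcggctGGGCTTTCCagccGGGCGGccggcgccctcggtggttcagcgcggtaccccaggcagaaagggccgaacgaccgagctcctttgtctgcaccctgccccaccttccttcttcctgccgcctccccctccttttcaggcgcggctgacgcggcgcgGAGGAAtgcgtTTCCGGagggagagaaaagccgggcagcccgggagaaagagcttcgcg
Itgam: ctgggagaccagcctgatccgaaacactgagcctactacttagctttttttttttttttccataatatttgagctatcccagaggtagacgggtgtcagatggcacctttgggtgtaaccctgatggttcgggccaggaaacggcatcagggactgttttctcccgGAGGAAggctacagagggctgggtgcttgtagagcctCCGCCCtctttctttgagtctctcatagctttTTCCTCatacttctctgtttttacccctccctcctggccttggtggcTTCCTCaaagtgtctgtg
Itgax: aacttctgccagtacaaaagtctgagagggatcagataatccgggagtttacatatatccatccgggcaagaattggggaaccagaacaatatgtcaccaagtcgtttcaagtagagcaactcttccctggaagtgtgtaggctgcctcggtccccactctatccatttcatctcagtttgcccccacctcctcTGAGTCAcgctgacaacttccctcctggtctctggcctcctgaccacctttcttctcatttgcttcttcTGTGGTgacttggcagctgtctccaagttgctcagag
The Itga4 window holds 1 RUNX match, 60 bases before the start site, and 1 Sp1 match. That of Itgb1 holds 1 match each to ETS, PU.1, Sp1 and NF-kappaB. In the Itgam window there are 3 PU.1 matches and 1 Sp1 match, and in that of Itgax 1 RUNX match, 14 bases after the start site, and 1 AP-1 match. RUNX letters thus stood in the window of a high gene, Itga4, and of a gene with 0 counts, Itgax. The 25 genes had 28 promoters. RUNX letters occurred in 3 of these 28, ETS letters in 5 and PU.1 letters in 12, beside 16.8%, 14.9% and 28.3% of all RefSeq promoters. Sp1 letters occurred in 15, AP-1 letters in 5 and NF-kappaB letters in 6, beside 35.7%, 7.81% and 18.5%. These shares were not tested.

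Of the ICAM genes, Icam2 was the highest. Icam2, a counter-receptor of LFA-1 on endothelium and leukocytes, had 65.6, 69.4, 59.8 and 62.7 TPM. Icam1, the inducible counter-receptor, had 27.7, 32.4, 34.3 and 34.98 TPM, lowest in replicate 1. The ranges do not overlap, and Icam2 exceeded Icam1 by 0.99 ± 0.21 log2 in 4 of 4 libraries, although in CPM the difference was -0.20, since Icam1 has more exonic bases. Of the exonic bases of Icam1, 11.7% lie opposite exons of Gm47079, where strand alone separates the reads. Vcam1, the counter-receptor of VLA-4, had 0.200, 0.210, 0.183 and 0.141 TPM, and Icam1 exceeded it by 6.84 ± 0.28 log2 in 4 of 4 libraries.

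Icam4, an ICAM known from red blood cells that binds integrins in humans, varied most of the 30 genes tested for spread. It had 7, 154, 78 and 167 counts, or 0.559, 3.81, 5.42 and 5.09 TPM in replicates 1 to 4. Replicate 1 thus stood apart from the other libraries, 9.70-fold below the highest, and the mean was 3.72 ± 2.22 TPM with it and 4.77 ± 0.852 TPM without it. Icam4 (ENSMUSG00000001014.6, chromosome 9, 21029373 to 21030595, plus strand) starts 555 bases beyond the end of Icam1 on the same strand. All of its exonic bases lie opposite exons of the antisense gene Gm47079, so that only strand separates the 2. Gm47079 had 16, 92, 21 and 25 counts, or 0.407, 0.725, 0.465 and 0.243 TPM. Icam1 was also lowest in replicate 1, by at most 1.26-fold. Whether strand or depth has a part in the Icam4 values was not tested. The promoters of these neighbours are Icam1 (chr9:21015690-21015989, plus strand) and Icam4 (chr9:21029182-21029481, plus strand).
Icam1: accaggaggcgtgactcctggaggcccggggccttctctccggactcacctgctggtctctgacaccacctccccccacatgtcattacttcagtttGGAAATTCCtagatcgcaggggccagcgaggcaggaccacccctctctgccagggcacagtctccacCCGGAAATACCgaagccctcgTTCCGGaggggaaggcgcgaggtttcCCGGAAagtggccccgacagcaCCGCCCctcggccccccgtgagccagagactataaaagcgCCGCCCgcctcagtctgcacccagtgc
Icam4: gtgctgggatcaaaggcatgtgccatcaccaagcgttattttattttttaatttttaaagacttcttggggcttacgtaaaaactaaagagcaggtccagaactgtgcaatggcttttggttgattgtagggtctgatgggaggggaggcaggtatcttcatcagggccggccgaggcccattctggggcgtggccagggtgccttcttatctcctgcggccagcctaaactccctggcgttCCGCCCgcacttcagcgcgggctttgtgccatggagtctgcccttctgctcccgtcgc
The Icam1 window holds 3 ETS matches, 2 Sp1 matches and NF-kappaB letters at 2 places, 153 and 84 bases before the start site, of which the first reads as a match on both strands and the second overlaps an ETS match. The Icam4 window holds 1 Sp1 match and none to the other motifs.

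The vascular selectins were low and their leukocyte ligand was high. Selplg, the mucin PSGL-1, had 165, 206, 187 and 202 TPM, lowest in replicate 1. Sele had 0.213, 0.462, 0.424 and 0.360 TPM, and Selp 0.0602, 0.317, 0.297 and 0.238 TPM. Selplg exceeded Sele by 8.71 ± 0.27 log2 and Selp by 9.27 ± 0.52 log2, each in 4 of 4 libraries. Pecam1, a homophilic receptor of endothelium and leukocytes, had 19.2, 22.8, 20.01 and 20.1 TPM. The endothelial markers Cdh5, Flt1, Emcn and Cldn5 had 0 counts in all libraries, and Tek was the highest of the 8 at 0.191 TPM.

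Cd2 and Cd6, receptors that T cells use to bind antigen presenting cells, were among the 4 highest adhesion genes. Cd2, which in mice binds CD48, had 313, 322, 287 and 323 TPM, lowest in replicate 3. Cd6 (ENSMUSG00000024670.16, chromosome 19, 10789341 to 10830058, minus strand), a scavenger-type receptor, had 726, 759, 756 and 784 TPM. Cd6 was the highest of all 39 genes, above 99.4% of protein-coding genes by mean level, with a coefficient of variation of 3.10%. Cd2 was lower than Cd6 in 4 of 4 libraries, with a difference of -1.28 ± 0.08 log2. Alcam, the ligand of Cd6, had 8.55, 7.64, 7.61 and 7.03 TPM, and Cd6 exceeded it by 6.60 ± 0.16 log2 in 4 of 4 libraries. Cd48 itself, from the list of ligands, stood at 282 ± 20.6 TPM (SD, n = 4).

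Cd47, the ligand of SIRP-alpha on phagocytes, had 77.8, 81.1, 82.5 and 87.7 TPM. Cd44, the hyaluronan receptor that marks activated T cells, had 172, 192, 184 and 190 TPM. Cd47 was lower than Cd44 in 4 of 4 libraries, by a difference of -1.16 ± 0.06 log2. The level of Cd44 could not be told from that of Selplg, since Cd44 minus Selplg was -0.04 ± 0.07 log2, positive in 1 library and negative in 3 (exact permutation p = 0.375, adjusted p = 0.375), and it was 0.63 in CPM. Sirpa, the receptor of Cd47, named after its values were seen, was below 1 TPM in every library.

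How far each gene varied between libraries, relative to the trend at its level, was tested over the whole table by the deviance of edgeR fits. Of the 39 adhesion genes, 30 passed the filter on low counts, which needs a minimum CPM, set from the median library size, in every library. The 9 left out were Itga1, Itga2, Itga8, Itga11, Itgad, Itgam, Itgax, Itgb6 and Selp. None of the 30 varied more than the trend at an adjusted p under 0.05, where the background was 66 of 14269 genes, 0.463%. An unadjusted p under 0.05 was found for 3 of the 30, Icam4, Itga10 and Itgb7, against 5.69% of all genes. Limma's variance test also called 0 of the 30, against 31 of 14269 genes. A common dispersion called 2 of the 30, Icam4 and Itga7, against 955 of 14269 genes. Without replicate 1 the count over all genes was 41 and that of adhesion genes 0.

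Of the adhesion genes, Icam4 came nearest the threshold, with an edgeR adjusted p of 0.0612, and an unadjusted p of 3.15e-04, which was 0.607 without replicate 1. Its adjusted p over the alternatives in which it was tested ran from 1.71e-07 with a common dispersion to 1.00 without replicate 1. Itga10 had an adjusted p of 0.649, with replicate 3 highest at 1.86 times the lowest library, and Itgb7 one of 0.670, with replicate 1 lowest and a range of 1.37-fold in TPM. Itga7 was above 1 TPM in 3 libraries, with 0.580, 1.04, 1.17 and 1.45 TPM. At the other end, the SD of log2 CPM was 0.03 for Cd6, 0.04 for Itgal and 0.04 for Cd44, lower than for all but 5.02%, 8.68% and 9.07% of the genes tested. That ranking took in genes of all levels and did not allow for the trend, so it does not compare genes of like abundance. The median SD was 0.11 log2 for the 30 adhesion genes and 0.12 for all genes tested.

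**Figure D4:**
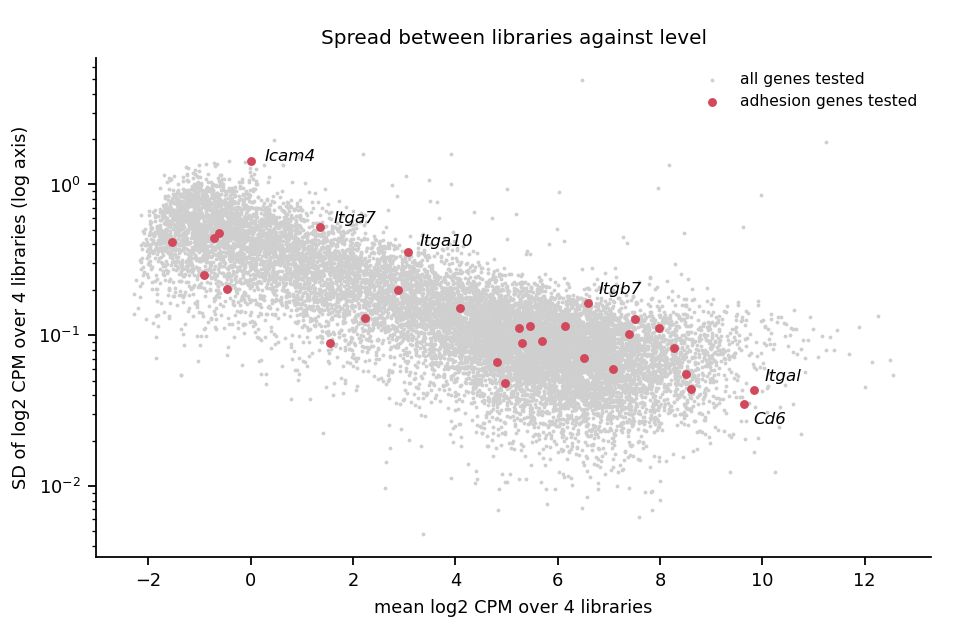
SD of log2 CPM over the 4 replicates (log axis) against mean log2 CPM for 14269 genes tested (grey) and the 30 adhesion genes among them (red). Icam4 lies at the upper edge at its level, and Itgal and Cd6 lie low among the abundant genes.

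The adhesion genes sat a little lower in replicate 1 than in the others. Their lowest log2 CPM was in replicate 1 for 14 of the 30 (46.7%), against 31.9% of all genes tested. Their median centred log2 CPM was -0.05, 0.03, 0.0039 and 0.05 in replicates 1 to 4, while that of all genes lay between -0.00099 and 0.0033. Itgb7, Selplg, Icam1 and Itgb3 were among those lowest there, and replicate 1 was also the library with fewest counts. The part of depth in this was not tested, and no test was made over the genes.

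The machinery that activates integrins was transcribed almost throughout. Of 32 genes of integrin activation and adhesion sites, 28 reached a TPM of 1 in all libraries, where 49.9% of protein-coding genes did. The median of the 32 means was 50.3 TPM. The highest were Fermt3, the kindlin of blood cells, at 501 ± 42.8 TPM (SD, n = 4), Rap1b at 399 ± 4.11, the parvin Parvg at 220.2 ± 8.0 and the actin crosslinker Flna at 209 ± 24.9. None of the 29 tested varied more than the trend, against 0.463% of all genes. By edgeR 0 of them had an unadjusted p under 0.05, against 5.69% of all genes. Named after their values were seen, the kindlins Fermt1 and Fermt2 were below 3 TPM in every library, and of the parvins Parva had 0 counts and Parvb 0.355 ± 0.265 TPM.

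Of 14 genes that build selectin ligands, 11 reached a TPM of 1 in all libraries, where 49.9% of protein-coding genes did. These were led by the galactosyltransferase B4galt1 at 98.6 ± 2.98 TPM (SD, n = 4), the sialyltransferase St3gal4 at 54.8 ± 3.63, the sulfotransferase Chst2 at 46.0 ± 6.10 and the tyrosine sulfotransferase Tpst1 at 36.9 ± 3.47. Fut7, the fucosyltransferase that completes the selectin-binding sugar, had 11.1, 14.7, 13.003 and 12.1 TPM, and Gcnt1, which branches the O-glycan core, 4.90, 4.93, 5.39 and 4.61 TPM, both named after their values were seen. None of the 13 tested was called by edgeR, against 0.463% of all genes. An unadjusted p under 0.05 was found for 2, Chst2 and Fut4, against 5.69% of all genes. Chst2 had an edgeR adjusted p of 0.0718 and was lowest in replicate 4.

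Ligands of the integrins and receptors were mostly low in the T cells themselves. Of 24 such genes, 8 reached a TPM of 1 in all libraries, where 49.9% of protein-coding genes did. The median of the 24 means was 0.355 TPM. The highest were Cd48, Tgfb1, the latent cytokine that Itgav integrins bind, at 178 ± 9.93 TPM (SD, n = 4), the basement membrane protein Nid1 at 24.0 ± 3.90 and the laminin chain Lamc1 at 15.3 ± 1.44. None of the 12 tested was called by edgeR, while 2, Lama5 and Nid1, had an unadjusted p under 0.05, against 5.69% of all genes. The laminin chain Lama5 had 3.19, 5.33, 6.25 and 5.72 TPM, lowest in replicate 1, with an adjusted p of 0.0540. The E-cadherin gene Cdh1 and the addressin gene Madcam1, ligands of the Itgb7 integrins that were picked with their values known, were below 1 TPM in every library.

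**Figure D5:**
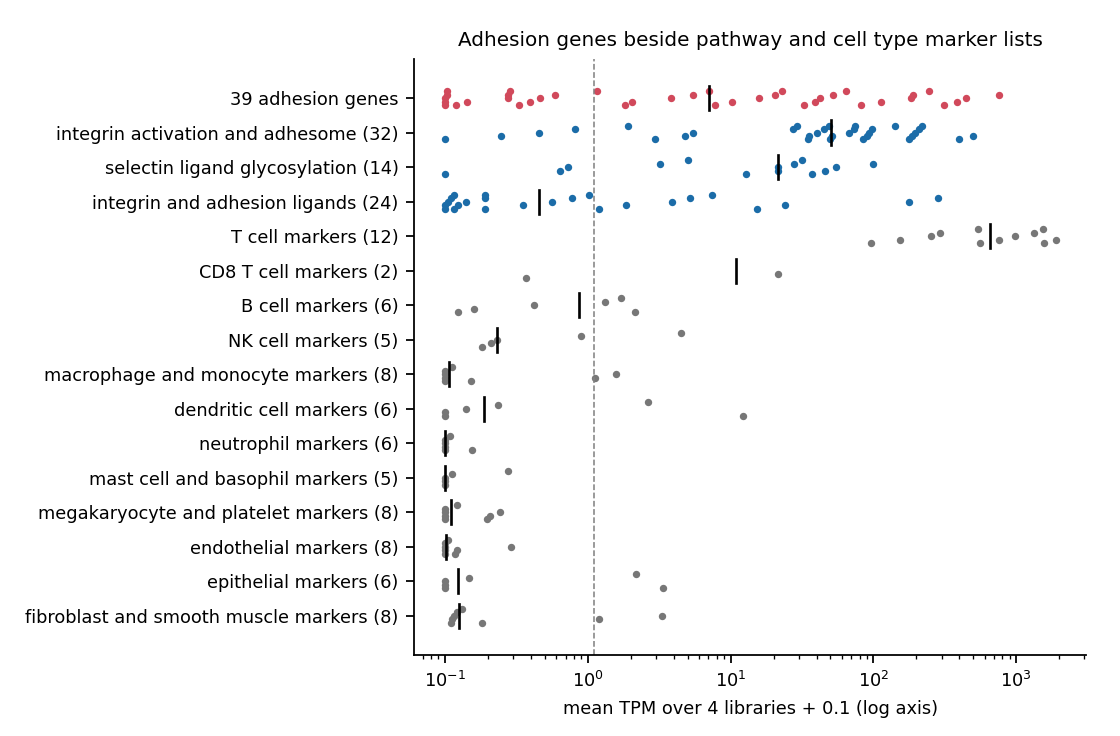
Mean TPM plus 0.1 on a log axis for each gene of the adhesion set (red), of 3 pathway lists (blue) and of 12 cell type marker lists (grey), with a black bar at each list's median and a dashed line at 1 TPM. The medians of the neutrophil, mast cell, platelet and endothelial markers lie at the left edge, and those of the integrin activation and selectin ligand lists at 50.3 and 21.3 TPM.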

How the data were processed

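The authors deposited raw counts of read pairs per gene, made with featureCounts 1.4.6-p4 on the exons of GENCODE M13 for mm10, per the file headers, with both ends mapped and the reverse strand setting. The command there sets neither option for counting pairs mapped to several places or fitting several genes. The aligner was STAR, per the file headers (version not given in the sources used here). In the labels the assay is called total RNA-seq, with a linked protocol named for polyA+ RNA. Symbols came from GENCODE M21 (50376 of 50600 identifiers, 99.6%).

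TPM were computed here from counts and exonic length, the bases covered by any annotated exon of a gene. Orders and ratios of genes in TPM rest on that length. Contrasts used log2(TPM + 0.1), which understates differences of low genes, with an exact permutation test that flips signs over 4 libraries, two-sided. Spread was tested with the goodness of fit of edgeR 4.0.16 in R 4.3.3 (filterByExpr, TMM, trended dispersion, intercept only, Benjamini-Hochberg at 0.05, prior count 2 for log2 CPM). The procedure was checked on simulated data, drawn at the trended dispersion, with 200 genes of any level each raised in 1 library. It recovered 53.5% of them at a 1.5-fold change, 70.5% at 2-fold and 89% at 4-fold. Calls outside these genes were 9, 4 and 1, and with no gene changed there were 3 calls. Drops in 1 library, and genes as low as Icam4 taken on their own, were not checked. Alternatives used DESeq2 1.42.0 size factors and limma 3.58.1.

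A count of 0 allows up to 3 counts at 95% confidence, for counting error only. The members, lists and contrasts were chosen with earlier results of these data known. All 39 members are named, and of each pathway list the 4 highest genes.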

Additional observations from a re-analysis of the deposited data

Results flagged for a closer look

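For each gene level (36 adhesion and 12 pathway genes), contrast and family share with any spread, 94 in all, the highest or lowest of the 4 libraries was compared with the rest by its gap over the range. A lone library stood out in 8 of them, where a rate of 1 in 20 would give about 4.7. That rate does not hold here, since several values reuse the same counts. A gene counted in 1 library alone also always stands out. Of these 8, 7 come from genes with almost no counts. Itga8 was 0.0138 TPM in replicate 4, from 3 counts, Itgam 0.169 TPM in replicate 3, from 11 counts, and Itgb6 0.0125 TPM in replicate 1, from 1 count, each with 0 in the other libraries. The same counts set the shares of Itga8 (0.00232%) and Itgam (0.0269%) among alpha chains and of Itgb6 (0.00169%) among beta chains. They also set the log2 difference of Itgal minus Itgam, 10.76 in replicate 3 and 12.00 to 12.18 elsewhere. The share of Itga2b among alpha chains was 0.316% in replicate 4 and 0.274% to 0.279% in the others.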

How the results depend on the processing

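All 23 contrasts kept their direction with a pseudocount of 1 and without any single replicate. With CPM in place of TPM, which leaves out gene length, 3 changed direction: Itgav minus Itga5 was 0.73, Icam2 minus Icam1 -0.20 and Cd44 minus Selplg 0.63, each a pair of unequal exonic length. The number of adhesion genes at a TPM of 1 in all libraries was 24 by CPM and 20 at a threshold of 5. The count of genes more variable than the trend was 955 with a common dispersion, 31 with limma's variance test and 41 to 68 without 1 replicate, while DESeq2's size factors gave 65 and no filter 75. Adhesion genes called were 2 of 30 with a common dispersion, beside 955 of 14269 genes, and 0 otherwise. TPM over protein-coding genes only were higher by a median factor of 1.08. The levels of Itga10 and Itgam over unshared bases and the ratios of partner chains in CPM were computed after seeing the data. No paired analysis was possible because there is 1 group. Genes at a few counts, such as Itgb6 and Itga8, are limited by depth, and transcript levels do not give protein at the surface.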
